A study of Rattus norvegicus with 6 samples.

Results

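Transcripts of 10 pancreatic genes were followed on 6 arrays of rat liver RNA. The genes were 5 that acinar cells of the exocrine pancreas express (Prss1, Ctrb1, Amy2a3, Reg1a and Pnlip) and 5 that the endocrine islets express (Ins1, Ins2, Gcg, Sst and Iapp), out of 14217 genes named on the array. Every probe set annotated to 1 of these genes alone was taken, with no limit on brightness, and each gene had exactly 1. The question was how the acinar and the islet transcripts stood on the array of high fat replicate 1 against the other 5 arrays. The genes and that array were chosen from measured values of these same arrays, so the differences between high fat replicate 1 and the others are given as a description, without a test.

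All samples were liver of Sprague-Dawley rats aged 3 weeks, the age of weaning. The 3 control pups had dams fed standard chow, and the 3 high fat pups had dams fed a high fat diet. Total RNA of each pup's liver was labelled from the 3' end and hybridised to 1 Affymetrix array, so the number of arrays limits the precision. The labels name no litter, sex or dissection detail, and p-values measure only the spread between these samples. A value below is a log2 signal after quantile normalization, where 1 unit is a 2-fold difference, and different probe sets are not set against each other by level.

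In the pancreas, acinar cells make digestive enzymes as inactive precursors or active hydrolases and store them in zymogen granules until a meal releases them into the duct. Islets lie scattered among the acini and secrete hormones into the blood: beta cells release insulin with amylin, alpha cells glucagon and delta cells somatostatin. The acinar genes are driven by a complex of PTF1A and RBPJL, and the insulin genes by PDX1, NEUROD1 and MAFA. Hepatocytes normally make neither trypsinogen nor insulin, and the pancreas lies close to the liver in the abdomen.

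The tissue label was checked first. Of 14 measured hepatocyte genes, among them albumin (Alb), transthyretin (Ttr) and apolipoprotein A1 (Apoa1), 5 were higher and 9 lower on high fat replicate 1 than the mean of the other arrays, with a median difference of -0.020 and a range from -0.81 (Tat) to 0.44 (Apoa2). On high fat replicate 1, 50% of all genes were higher than that mean. Alb was at 14.65 there and at 14.46 to 14.77 elsewhere. The log2 of the summed hepatocyte signal was 18.35 there and 18.30 to 18.44 in the others. High fat replicate 3 stood apart in another respect, with Xist at 4.45 against 12.46 to 13.31 elsewhere and the Y-linked Eif2s3y at 11.14 against at most 3.99. The 3' minus 5' difference of the actin control probe sets, a sign of RNA integrity, was 3.85 on high fat replicate 1 and 3.23 to 4.56 on the others.

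Acinar enzyme transcripts were high on 1 liver array and low on the other 5. On high fat replicate 1, all 5 acinar genes lay above every other array, by 4.05 to 9.36 log2 units over the highest of them. Of the islet genes, Ins1 and Ins2 lay above every other array there as well, but by 2.02 and 2.35, while Gcg, Sst and Iapp did not. The 5 acinar genes, Ins1 and Ins2 were also the only members above the mean of the other arrays. Over all 14217 genes, 13.8% lay above every other array and 50% above the mean of the others. High fat replicate 1 exceeded the highest other array at least 4-fold in 42 genes, which is 0.295%, and 7 of the 10 members were among these. Since the members were chosen by this very contrast, nothing is read from these counts.

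**Figure D1:**
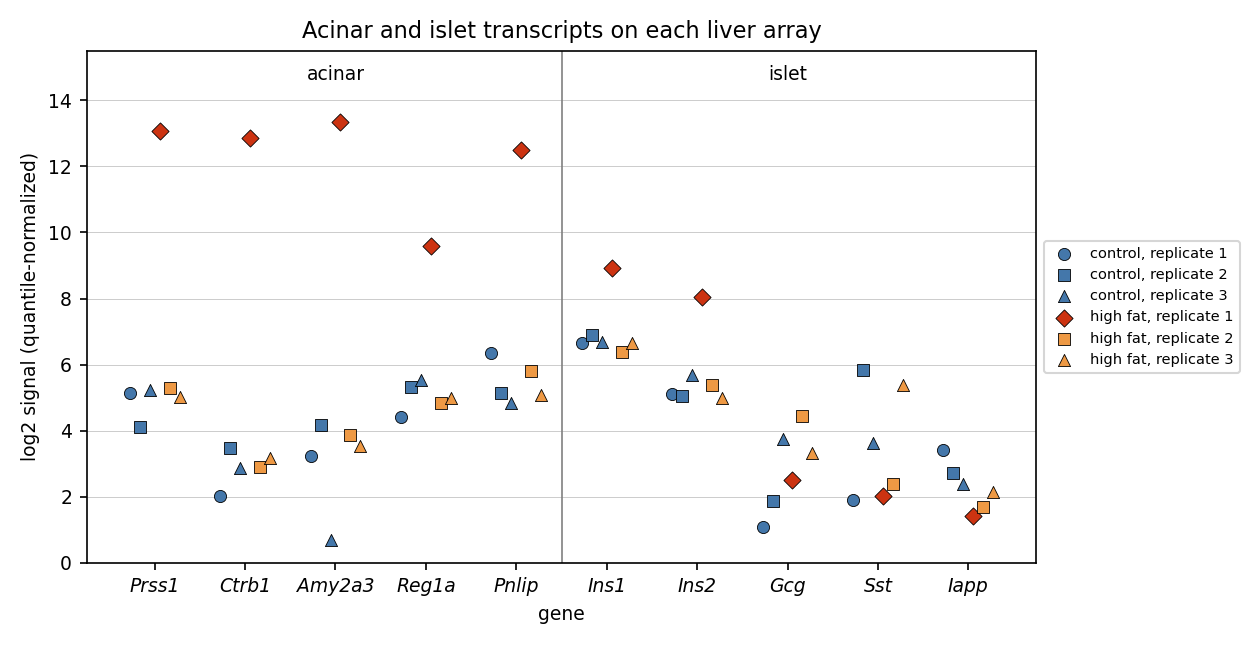
Log2 signal (vertical axis, quantile-normalized) of the 5 acinar and 5 islet genes (horizontal axis), 1 point per array, with blue for control, orange for high fat replicates 2 and 3 and red diamonds for high fat replicate 1. The red diamonds lie above all other points for the 5 acinar genes and for Ins1 and Ins2, and inside or at the bottom of the range for Gcg, Sst and Iapp.

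Prss1 encodes a trypsinogen, the precursor of trypsin that activates the other zymogens in the gut. Its probe set 1369030_at read 5.13, 4.10 and 5.23 in control replicates 1, 2 and 3, 13.08 in high fat replicate 1, and 5.30 and 5.02 in high fat replicates 2 and 3. The 5 arrays other than high fat replicate 1 thus spanned little more than 1 unit, with an SD of 0.49 (n = 5), and controls and high fat arrays overlapped among them. High fat replicate 1 was 8.13 above their mean, a 279-fold difference, and ranked at position 8 among 31042 probe sets by this difference.

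Ctrb1, chymotrypsinogen B, is a protease precursor that trypsin activates. Probe set 1369951_at was at 2.02, 3.48 and 2.87 in the controls, 12.85 in high fat replicate 1, and 2.90 and 3.17 in high fat replicates 2 and 3. High fat replicate 1 was alone at the top, 9.36 above the highest other array and 9.96 above the mean of the 5. Amy2a3, pancreatic alpha-amylase, which cleaves starch, showed the largest difference of all probe sets. Its probe set 1369503_at read 3.24, 4.17 and 0.70 in the controls, 13.36 in high fat replicate 1, and 3.88 and 3.54 in the remaining high fat arrays. The difference was 10.25, or 1216-fold, but control replicate 3 lay far below the other controls (SD of the 5 arrays 1.39), and without that array it was 9.65. Folds against such dim values depend on how far down the scale is trusted. With every value below 5.83 (the 40th percentile of probe set means) raised to that floor, Amy2a3 was at 7.52, Prss1 at 7.25, Ctrb1 at 7.01, Pnlip at 6.56 and Reg1a at 3.76.

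Pnlip encodes pancreatic lipase, which splits dietary triglyceride. The values of 1368554_at were 6.36, 5.13 and 4.82 in the controls, 12.49 in high fat replicate 1, and 5.79 and 5.09 in high fat replicates 2 and 3, a difference of 7.06 (133-fold). Reg1a, a secreted C-type lectin of acinar cells also known as lithostathine, had the smallest difference of the 5 acinar genes. Its probe set 1368629_at read 4.40, 5.33 and 5.54 in the controls, 9.59 in high fat replicate 1, and 4.85 and 5.0 in the others, 4.56 above the mean of the 5 (23.6-fold). Amy2a3 and Ctrb1 differed from each other by less than the spread of Amy2a3 over the 5 arrays, whereas Reg1a lay below the other 4 acinar genes by more than its own spread (SD 0.44). No acinar value had been deposited at 0.

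Amylase was also read by a probe set shared with another gene. The probe set 1369502_a_at is annotated to both Amy2a3 and Amy1 and was not counted as a member. It read 14.03 to 14.46 on the 5 arrays and 14.71 on high fat replicate 1, a 1.40-fold difference. Amy1, the amylase of salivary gland and liver, has its own probe set, 1370359_at, which read 13.64 to 14.09 on the 5 arrays and 14.13 on high fat replicate 1. Both were at the top of the range on the array with high Amy2a3, but neither stood apart as 1369503_at did.

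Insulin transcripts were raised on the same array, by much less than the acinar ones. Ins1, the insulin gene that rodents carry as an extra copy, read 6.66, 6.91 and 6.67 in the controls (1387815_at), 8.93 in high fat replicate 1, and 6.37 and 6.66 in high fat replicates 2 and 3. The 5 arrays were tightly grouped (SD 0.19, n = 5), and high fat replicate 1 was 2.28 above their mean, 4.85-fold. Ins2, the counterpart of the single insulin gene of other mammals, read 5.11, 5.04 and 5.69 in the controls (1370077_at), 8.03 in high fat replicate 1, and 5.38 and 5.0 in the others. This placed high fat replicate 1 at 2.79 above the mean of the 5, 6.91-fold, against an SD of 0.29. By size of the difference, Ins2 held position 149 and Ins1 position 331 among 31042 probe sets, although both stood above all 5 other arrays.

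The 3 other islet hormone genes read low on high fat replicate 1, too dim to tell whether they follow insulin. Gcg, proglucagon of alpha cells, was at 1.08, 1.88 and 3.74 in the controls (1369888_at), 2.52 in high fat replicate 1, and 4.44 and 3.32 in high fat replicates 2 and 3. Sst, somatostatin of delta cells, was at 1.90, 5.84 and 3.63 in the controls (1367762_at), 2.03 in high fat replicate 1, and 2.38 and 5.40 in the others. High fat replicate 1 therefore lay inside the range of the other arrays for both, and the 5 arrays themselves varied widely, with SDs of 1.38 and 1.76. Iapp, the amylin peptide that beta cells store in the same granules as insulin, read 3.43, 2.71 and 2.39 in the controls (1387660_at), 1.42 in high fat replicate 1, and 1.68 and 2.15 in the others. High fat replicate 1 was the lowest of the 6 arrays for Iapp, 1.05 below the mean of the 5. All values of Gcg, Sst and Iapp were below 5.83 but for Sst on control replicate 2, and with the floor at that level their differences were 0, -0.00078 and 0.

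**Figure D2:**
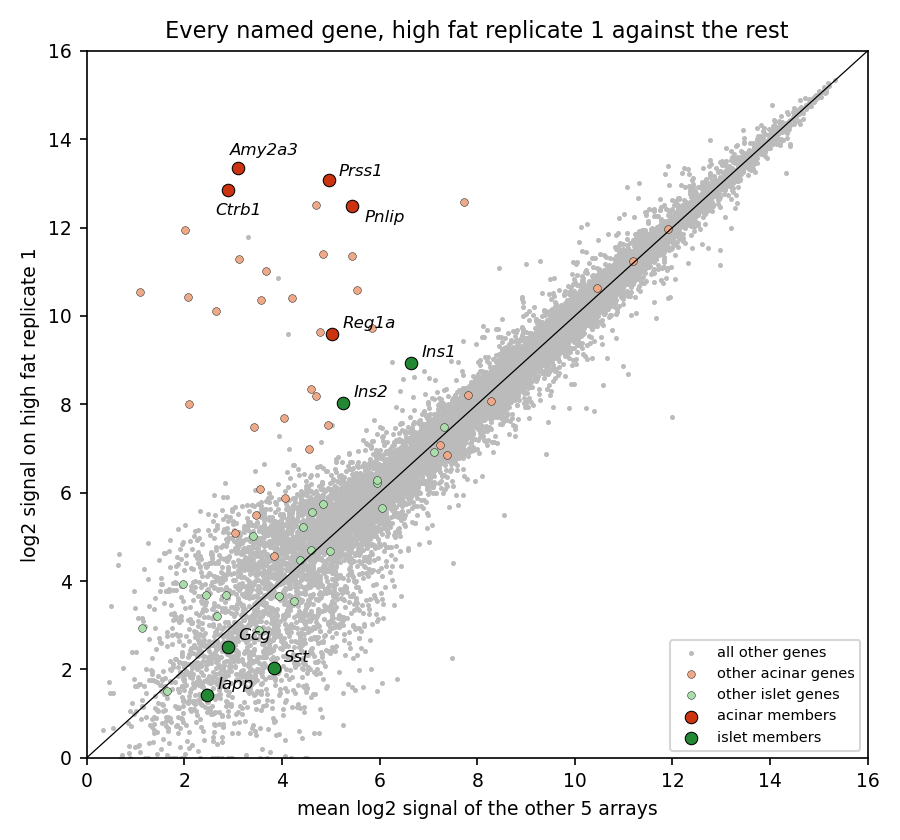
Each of 14217 genes, 1 probe set each, with its mean log2 signal on the other 5 arrays (horizontal axis) and its log2 signal on high fat replicate 1 (vertical axis); the line marks equality. The 5 acinar members (red) and most other acinar genes (orange) lie far above the line, Ins1 and Ins2 above it by 2.28 and 2.79, and Gcg, Sst, Iapp and the other islet genes (green) within the cloud.

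Set side by side, the 5 acinar differences ran from 4.56 to 10.25 with a median of 8.13, and the 5 islet differences from -1.80 to 2.79 with a median of -0.38. The median over all genes was 2.2e-05, with an interquartile range from -0.24 to 0.24. Every acinar difference exceeded every islet difference. Probe sets differ in how signal follows RNA amount, so these differences rank the probe sets and do not give a ratio of acinar to islet RNA. The islet median, which is the value of Gcg, was 0.0083 without high fat replicate 2, the array with the highest Gcg. In bulk liver RNA, the number of cells of a type and the RNA per cell cannot be told apart.

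Promoter sequence of the members was then compared as a description. The acinar genes, Ins1 and Ins2 were high together only on the array that the rule used. Any link of promoter sequence to this was not tested. The sequences are the 250 bases before the start given for each gene in a RefSeq promoter table on build GRCr8, and all 10 members had an entry. For Pnlip and Ins2 this window lies inside the gene's annotated extent, which begins further upstream. Capitals mark 5 motifs, searched on both strands: CACCTG (an E-box of the type PTF1A binds), TTCCCA (the core bound by RBPJ and RBPJL), GCCATCTG (the E1 box of the insulin genes, bound by NEUROD1), CTAATTA (the A3 box, bound by PDX1) and TATAAA (the TATA box). None of the 5 contains another. Prss1 (chr4:71330999-71331248 on the plus strand), Ctrb1 (chr19:56566979-56567228 on the minus strand) and Reg1a (chr4:112450216-112450465 on the plus strand) are shown for the acinar genes. Ins1 (chr1:261185869-261186118 on the plus strand), Ins2 (chr1:207273806-207274055 on the minus strand) and Iapp (chr4:176967847-176968096 on the plus strand) are shown because the 3 genes share a cell type. Iapp read below 5.83 on all 6 arrays, so whether its pattern differs from that of the insulin genes cannot be told. Each sequence reads 5′ to 3′ on the gene's strand.
Prss1: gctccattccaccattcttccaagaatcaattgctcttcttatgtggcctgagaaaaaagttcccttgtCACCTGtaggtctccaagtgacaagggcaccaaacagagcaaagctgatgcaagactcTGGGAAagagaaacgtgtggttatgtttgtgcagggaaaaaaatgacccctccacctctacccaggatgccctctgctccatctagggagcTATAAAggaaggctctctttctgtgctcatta
Ctrb1: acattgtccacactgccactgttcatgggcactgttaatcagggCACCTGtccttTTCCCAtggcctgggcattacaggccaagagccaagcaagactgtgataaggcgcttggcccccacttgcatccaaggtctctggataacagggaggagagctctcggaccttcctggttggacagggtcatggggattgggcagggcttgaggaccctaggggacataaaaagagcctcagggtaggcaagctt
Reg1a: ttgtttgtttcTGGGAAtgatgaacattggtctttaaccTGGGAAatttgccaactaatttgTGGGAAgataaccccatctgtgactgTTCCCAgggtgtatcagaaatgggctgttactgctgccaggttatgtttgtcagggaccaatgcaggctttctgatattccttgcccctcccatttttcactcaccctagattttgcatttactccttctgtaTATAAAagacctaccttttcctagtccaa
Ins1: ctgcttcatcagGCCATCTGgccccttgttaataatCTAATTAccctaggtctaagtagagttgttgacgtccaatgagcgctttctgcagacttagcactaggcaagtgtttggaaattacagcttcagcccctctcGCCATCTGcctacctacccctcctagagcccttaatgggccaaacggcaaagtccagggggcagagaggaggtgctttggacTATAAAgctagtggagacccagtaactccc
Ins2: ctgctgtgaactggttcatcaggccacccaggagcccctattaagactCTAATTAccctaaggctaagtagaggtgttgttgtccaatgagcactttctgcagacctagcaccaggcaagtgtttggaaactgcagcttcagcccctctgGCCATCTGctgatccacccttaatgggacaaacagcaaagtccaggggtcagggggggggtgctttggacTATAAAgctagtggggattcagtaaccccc
Iapp: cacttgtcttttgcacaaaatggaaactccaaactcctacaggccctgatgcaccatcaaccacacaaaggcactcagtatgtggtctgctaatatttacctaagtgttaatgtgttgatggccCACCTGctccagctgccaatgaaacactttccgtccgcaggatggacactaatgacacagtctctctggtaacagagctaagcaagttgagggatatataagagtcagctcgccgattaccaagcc

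TTCCCA was found in 4 of the 5 acinar windows (Prss1, Ctrb1, Reg1a and Pnlip), in 1 islet window (Gcg) and in 22.1% of all 33465 windows of the same length. In Ctrb1 it lay just downstream of a CACCTG, at -195 to -190 after the E-box at -206 to -201 from the start. In Prss1 both motifs were present, at -181 to -176 and, on the reverse strand, at -123 to -118. Reg1a held 4 copies of TTCCCA, the first at -239. CACCTG was in Prss1, Ctrb1 and Iapp, and in 15.9% of all windows. GCCATCTG and CTAATTA, in 0.998% and 1.62% of all windows, were both in Ins1 and Ins2 and in no other member. These motifs were chosen as boxes of the insulin genes, so finding them there is no test. TATAAA, in 12.9% of all windows, stood at -30 to -25 in both insulin genes and was in 4 acinar windows. A match describes letters in this window and does not show that a factor binds.

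The promoters of Ins1 and Ins2 were much more alike than those of any other pair. Aligned end to end, 205 of 262 columns were identical (78.2%), against 40.3% to 49.3% for the other 44 pairs of members. The coding sequences of these genes are close copies too, so signal of the insulin probe sets may be shared between them, and the same holds within the trypsinogen family of Prss1. The probe sequences were not analysed here.

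Most other digestive enzymes were also highest on high fat replicate 1. Of 14 measured genes of a further list of acinar enzymes, 13 were at least 4-fold above the highest other array on high fat replicate 1. Over all genes 0.295% were. The median difference of the 14 was 7.07. This list, like the others below, was drawn up knowing earlier results of these arrays, and it stands in the same contrast as the rule. Pnliprp1, a lipase-related protein, was at 11.95 against 0.59 to 3.73, Prss2, also a trypsinogen, at 10.55 against 0 to 3.85, and Pnliprp2 at 10.43 against 1.07 to 4.11. The carboxypeptidases Cpa1 and Cpb1, the elastases Cela2a and Cela3b, the bile salt-stimulated lipase Cel, the lipase cofactor Clps, the phospholipase Pla2g1b and the chymotrypsin-like Ctrc and Ctrl were likewise above every other array on high fat replicate 1. Cela1 was the exception, at 11.25 on high fat replicate 1 and 10.42 to 11.85 on the others, a difference of 0.063. It was already bright on the other arrays, and why it differed from the other 13 was not tested.

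**Figure D3:**
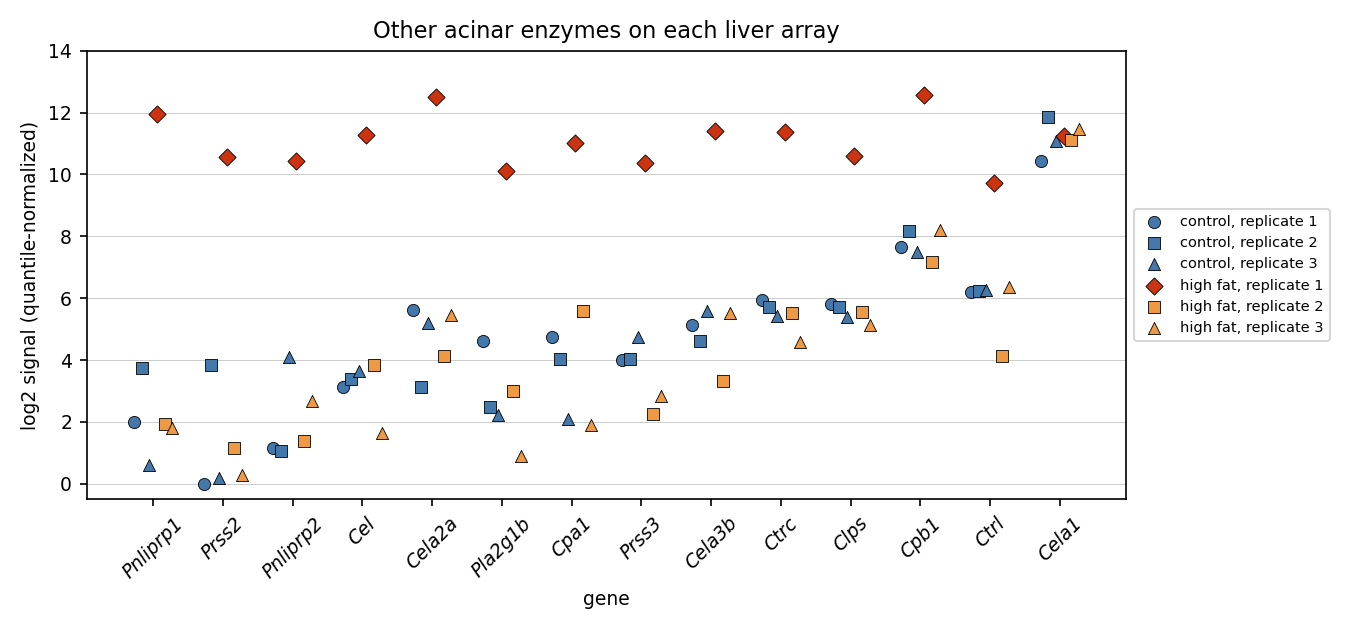
Log2 signal (vertical axis) of 14 further acinar enzymes (horizontal axis, in falling order of the difference), 1 point per array, with colours as for the members. High fat replicate 1 lies alone above the rest for 13 genes, and within the range for Cela1, which reads 10.42 to 11.85 on the other arrays.

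Genes of the zymogen granule and of acinar identity moved less evenly. Of 20 measured genes, 17 were higher than the mean of the other arrays, 14 lay above every other array and 7 were at least 4-fold above the highest. Over all genes, 50% were higher than that mean, 13.8% lay above every other array and 0.295% were at least 4-fold above the highest. The granule lectin Zg16 was at 10.41 against 3.22 to 5.43, Cuzd1 at 8.0 against 1.32 to 3.37, and syncollin, Sycn, which lines the granule membrane, at 9.63 against 3.37 to 5.38. Ptf1a, the acinar transcription factor gene, was at 5.88 against 2.72 to 5.35. Bhlha15 (also known as Mist1), which sets up the secretory apparatus, was at 7.07 and inside the range of 5.63 to 8.38. Rab3d, a granule GTPase, had the most negative difference, -0.54.

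Islet genes beyond the hormones of the member list were mostly dim on high fat replicate 1, with a median level of 4.58, below 5.83. None of 22 measured genes was 2-fold above the highest other array. Over all genes 0.809% were, so a count of 0 is near that share and nothing is read from it. Of the 22 genes, 4 lay above every other array, where 13.8% of all genes did. The median difference was 0.22. Nkx6-1, a beta cell transcription factor, was at 3.93 against 0 to 4.68, the hormone Pyy at 2.94 against 0.47 to 2.12, and the granin Scg2 at 5.02 against 1.51 to 4.50. Pdx1, the regulator of the insulin genes, was at 3.68, inside the range of 1.18 to 4.89. The convertase Pcsk2, which trims prohormones, was at 3.22 against 2.29 to 3.03, and chromogranin A, Chga, at 1.52 against 0.77 to 2.22. Ghrl had the most negative difference, -1.89.

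Markers of neighbouring tissues were read in the same way. No gene of the duct, adipocyte, intestine, stomach, spleen and lymph node, or salivary gland lists was 2-fold above the highest other array on high fat replicate 1. Over all genes 0.809% were, so a count of 0 is near that share and nothing is read from it. The gastric, lymphoid and salivary lists were also dim on that array, with median levels of 4.98, 5.37 and 3.59, below 5.83. The median differences were -0.064 over 7 duct genes, 0.068 over 6 adipocyte genes, 0.12 over 9 intestinal genes, 0.19 over 8 gastric genes, -0.11 over 4 lymphoid genes and -0.46 over 4 salivary genes. The largest single difference was 2.26 for Alpi, intestinal alkaline phosphatase, at 5.98 against 2.49 to 5.81. Among duct genes Muc1 was above every other array, at 6.64 against 6.25 to 6.53, and Spp1 and Car2 were below, Spp1 by the most at 3.46 against 3.93 to 6.69. Mesenchymal genes had a median of -0.11 over 8 genes.

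The summed signal of endothelial markers was lower on all 3 high fat arrays than on the controls. The log2 of this sum was 14.56, 14.32 and 14.49 in the controls, 13.54 in high fat replicate 1, and 13.92 and 13.76 in high fat replicates 2 and 3. Single genes could overlap: Vwf was at 7.61 in control replicate 2 and 8.13 in high fat replicate 3, and Pecam1 overlapped as well. Without high fat replicate 1, the median change of the 9 measured genes was -0.55, and none passed an adjusted p under 0.05 in limma. An unadjusted limma p under 0.05 was found for 4, against 7.48% of all probe sets. On high fat replicate 1 all 9 measured genes were below the mean of the others and 7 lay below every other array, where 15.8% of all genes did, with a median of -0.45. Stab2, a scavenger receptor of the liver sinusoid, was at 10.02 against 10.54 to 11.61. The part of this in the acinar result was not tested.

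**Figure D4:**
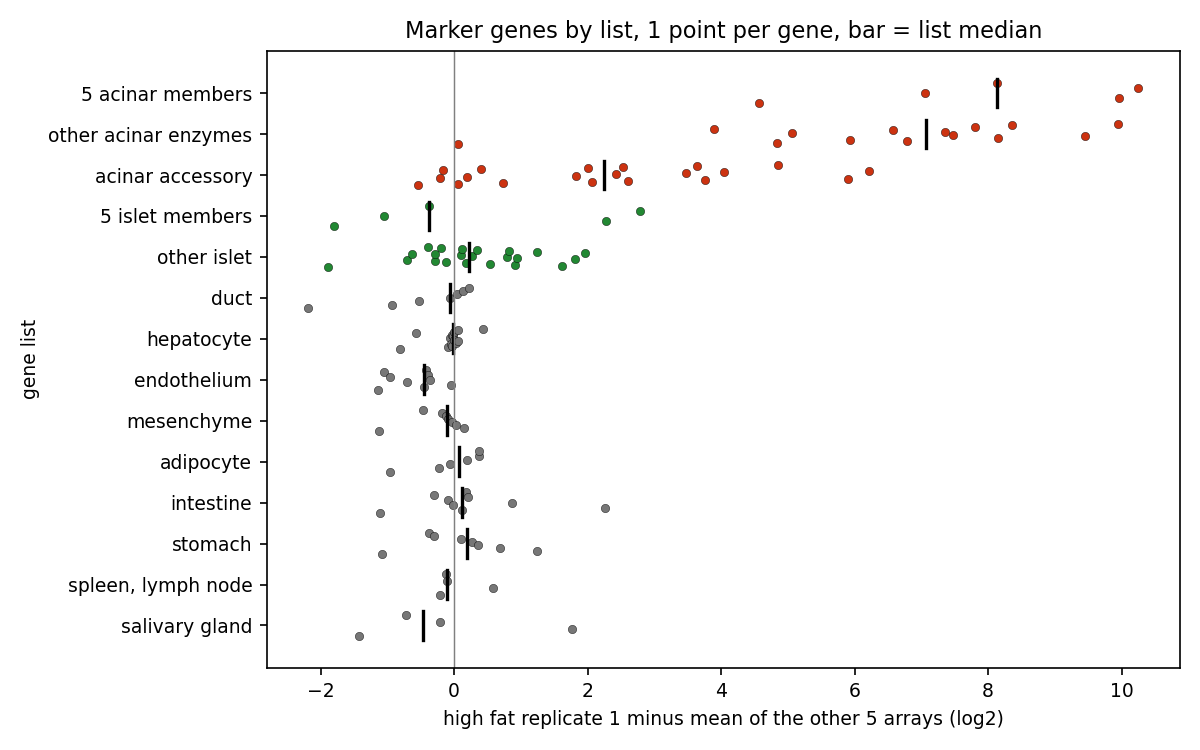
Difference between high fat replicate 1 and the mean of the other 5 arrays (horizontal axis, log2) for each gene of 14 marker lists (vertical axis), 1 point per gene, with a black bar at the list median. The acinar lists have medians of 8.13, 7.07 and 2.25, and every other list has a median between -0.46 and 0.22.

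Probe sets of genes outside all lists were ranked by how closely they followed the mean acinar profile. Pearson's r over the 6 arrays was used, among probe sets with high fat replicate 1 at least 4-fold above the highest other array. With 1 array far from the rest, r mainly reflects that array, so it is a description only. The 8 closest were probe sets of Bdnf (r = 0.967), Syndig1l (0.964), Slc24a4 (0.959), Adam6 (0.955), Rnase1l2 (0.948), Ibsp (0.948), Prss3b (0.946) and Tceal5 (0.944). Rnase1l2, a ribonuclease gene, was at 10.86 against 2.90 to 5.11, and Prss3b, a further trypsinogen gene, at 11.79 against 0.79 to 4.92. The others were at 4.33 to 6.06 on high fat replicate 1. The probe sets of Bdnf and of Slc24a4 disagreed. For Bdnf, 1 probe set read 5.37 against 2.20 to 3.20 and the other, the brighter, 4.24 against 4.88 to 5.16. For Slc24a4, the ranked probe set read 4.75 against 1.45 to 2.29, while the others read 3.77 against 3.02 to 6.35 and 5.90 against 2.74 to 6.19. For comparison, Ins1 had r = 0.978 and Ins2 r = 0.961 with the same profile, Gcg -0.12, Sst -0.41 and Iapp -0.61. With 1 probe set per gene, the brightest, 42 genes passed the 4-fold limit. They comprised 25 genes of the acinar lists, Ins1 and Ins2, 3 trypsinogen or ribonuclease genes outside the lists (Prss3b, Prss3bl1 and Rnase1l2), and 12 genes in no list. Of these 12, 10 read below 5.83 on high fat replicate 1, and Fam151a and Syndig1l read above it.

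The diet comparison was then made with and without high fat replicate 1, because that array is 1 of the 3 high fat arrays. With all 6 arrays, Prss1 was at 4.82 ± 0.63 (SD, n = 3) in controls and 7.80 ± 4.58 (SD, n = 3) in high fat pups, a log2 change of 2.98 (SE 2.26, limma adjusted p = 0.759). All 5 acinar genes had positive changes, from 1.39 to 4.22 with a median of 2.98, and Ins1 and Ins2 were at 0.57 (SE 0.70) and 0.86 (SE 0.84). These values share the array that chose the members and are a description. None of the 10 members passed an adjusted p under 0.05, where 0% of 31042 probe sets did in limma and 2435, or 7.84%, had an unadjusted p under 0.05. Iapp, at -1.10 (SE 0.35, limma unadjusted p = 0.0215, adjusted p = 0.572), was the member with the smallest p.

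Leaving out high fat replicate 1 gives a comparison without that array. The other 5 arrays were the other side of the rule, so their values entered the choice as well. The rule did not split those 5 by diet. High fat replicates 2 and 3 against the 3 controls gave Prss1 at 5.16 ± 0.19 (SD, n = 2) against 4.82 ± 0.63 (SD, n = 3), a change of 0.34 (SE 0.42, limma adjusted p = 0.858). The other acinar changes were 0.24 (SE 0.48) for Ctrb1, 1.00 (SE 1.10) for Amy2a3, -0.17 (SE 0.41) for Reg1a and 0.0034 (SE 0.56) for Pnlip. Their median fell from 2.98 to 0.24, against a median of -0.0047 over all probe sets. Among the islet genes, Ins1 was at -0.23 (SE 0.21), Ins2 at -0.091 (SE 0.30), Gcg at 1.65 (SE 0.90), Sst at 0.10 (SE 1.51) and Iapp at -0.93 (SE 0.39). No member passed (0 of 10, smallest limma adjusted p = 0.685, for Iapp), nor did any of 31042 probe sets (0%), though 2321 (7.48%) had an unadjusted p under 0.05, none of them a member. A p that misses the threshold does not show equal levels. The sign for Sst turned with single arrays: it was -1.40 when high fat replicate 3, the array set apart by Xist, was left out too, and 1.61 when high fat replicate 2 was. The Amy2a3 change was 0.0015 when control replicate 3 was left out.

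**Figure D5:**
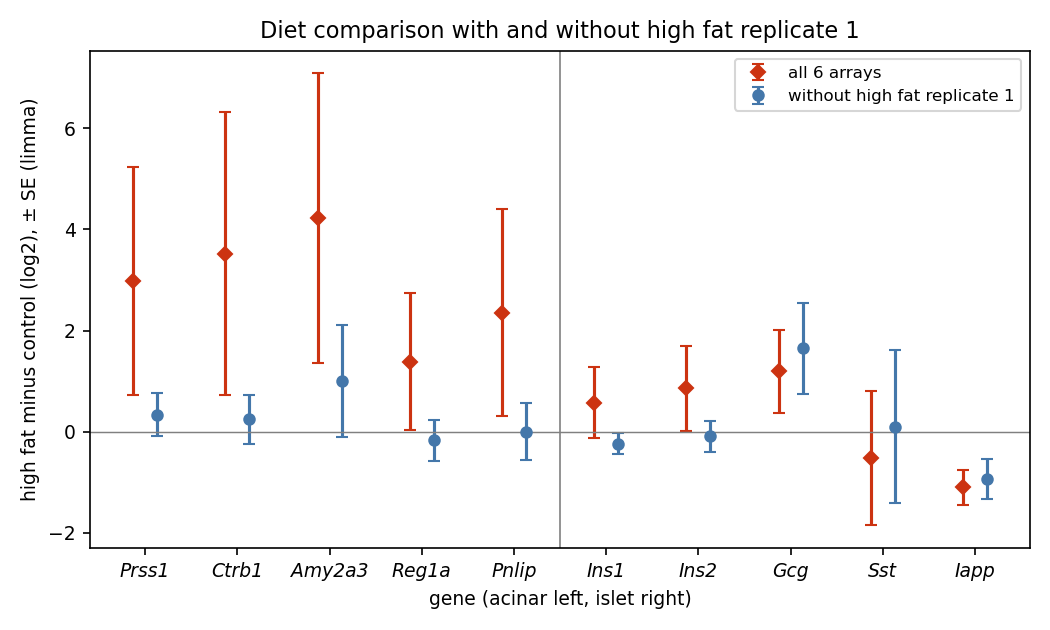
Log2 change, high fat minus control (vertical axis), of the 10 members (horizontal axis) from limma with all 6 arrays (red diamonds) and without high fat replicate 1 (blue circles); bars are ± 1 SE. The 5 acinar genes lie at 1.39 to 4.22 with that array and at -0.17 to 1.00 without it.

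Further pancreatic genes were read in the same comparison. The 14 acinar enzymes had a median change of -0.47, the 20 accessory genes of -0.095 and the 22 further islet genes of -0.018. In limma none of them passed an adjusted p under 0.05, and 1, 2 and 2 genes had an unadjusted p under 0.05, against 7.48% of all probe sets. These were Prss3 at -1.72 (SE 0.36), Reg3a at -2.28 (SE 0.29), Rab3d at -0.92 (SE 0.19), Chga at -0.84 (SE 0.31) and Ptprn at -0.87 (SE 0.26). Their limma adjusted p ran from 0.330 for Reg3a to 0.662 for Chga. No array of the remaining 5 was highest in all 5 acinar members: the highest was control replicate 1 for Pnlip, control replicate 2 for Ctrb1 and Amy2a3, control replicate 3 for Reg1a and high fat replicate 2 for Prss1.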

How the data were processed

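Liver RNA of 3 control and 3 high fat pups was measured on Affymetrix rat arrays, with 3' IVT labelling (per the labels' protocols). Values were deposited as log2: undoing base 2 gives every array a 2% trimmed mean of 500.2. The lowest were deposited as 0, in 91 to 144 of 31099 probe sets per array. Which software summarized the probes is not stated here. Values were quantile-normalized, since array quartiles were up to 0.22 apart. Of 31042 probe sets without controls, 20826 named 1 gene (20758 matched in the RefSeq rat gene table of GRCr8), 436 several and 9780 none here. A listed gene with several probe sets took the brightest. No detection calls were used.

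High fat was set against control in R 4.3.3 by limma 3.58.1 (eBayes, 2-sided) over all 31042 probe sets, with Benjamini-Hochberg adjustment, and the step was tested on simulated data. Motifs and alignments used Python 3.11.15 and Biopython 1.88, and figures matplotlib 3.10.9. Members, lists and the rule for named genes (all members; up to 3 highest and the lowest of each list; 8 by likeness) were chosen with earlier results of these data known, and genes beyond that rule after their values were seen. Alternatives covered normalization, floor, brightness filter, probe set choice, variance trend, replicate block and each array left out. Replicate numbers come from the labels. Same-numbered arrays did not deviate together (r = -0.015, -0.034 and -0.028 over probe sets), so the main fit has no block.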

Additional observations from a re-analysis of the deposited data

How the results depend on the processing

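The acinar median difference of high fat replicate 1 stayed above 7 in all 9 alternatives: 7.95 against the median of the other arrays, 7.01 with the floor at the 40th percentile, and 7.91 to 8.21 with 1 array left out. The islet median was -0.81 against the median of the other arrays, 0 with the floor, and -0.81 to 0.0083 with 1 array left out. Ins1 stayed between 2.21 and 2.34 and Ins2 between 2.20 and 2.92 in all 9. The alternative with 1 probe set per gene could not move any of these values, since each member has exactly 1. In the diet comparison no member passed in any of the alternatives that tested it, with or without high fat replicate 1. The count over all probe sets with 6 arrays rose from 0 to 6 with the dimmest 40% left out, to 1 with 1 probe set per gene and to 5 with a variance trend. Without high fat replicate 1 it rose to 3 with the dimmest 40% left out and to 19 with the trend. That filter used the mean of all 6 arrays and kept Prss1, Pnlip and Ins1, of which Prss1 and Pnlip entered through high fat replicate 1. With the filter on the mean of the 5 arrays, chosen after seeing the data, 2 probe sets passed and Ins1 was the one member kept. With the replicate number as a block, 0 probe sets and 0 members passed in both comparisons; without high fat replicate 1 the block removes control replicate 1, which then has no partner. Leaving out 1 array gave 0 to 0 probe sets past the threshold in both comparisons. Where high fat replicate 1 and a further high fat array were left out, the lone high fat array was assumed to vary like the controls, and a count of 0 there shows no stability. The floor moved Ctrb1 from 9.96 to 7.01 and Amy2a3 from 10.25 to 7.52, and Sst and Iapp from -1.80 and -1.05 to near 0.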

Other observations

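Of all 31042 probe sets, 71 were at least 4-fold above the highest other array on high fat replicate 1. Among the 9780 with no gene named here, 23 were, a similar share, so nothing is read from that count. The brightest, 1393397_at, read 11.66 there and 6.82 to 7.41 on the other 5 arrays, a difference of 4.56 from their mean. Next in brightness was 1369787_at, at 7.30 against 1.47 to 5.06. The other probe sets of this kind were dimmer on that array, down to 2.68 for 1386433_at.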
